A study of Mus musculus with 16 samples.

Results

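The response of mouse pancreatic islets to the cytokine IL-1β alone was measured by RNA sequencing, by comparing 4 libraries of islets kept for 10 days with 50 pg/mL IL-1β with 4 libraries of control islets kept for the same time without additions. These 8 libraries were chosen by their labelled treatment from the 16 libraries of the series, and the comparison was made over all 18587 genes with enough counts to be tested, of 52636 genes in the count table. All islets came from male C57BL/6JRj mice aged 12 weeks, with no transgene or deletion. Each library was made from 500 islets pooled from several mice, so that a replicate is a pool and not a mouse, and nothing in the labels ties a control pool to an IL-1β pool. Both groups were cultured in RPMI 1640 medium with 2% human serum that was renewed at day 5, and the IL-1β was recombinant mouse protein. The other 8 libraries, from islets given 0.2 mM butyrate with or without IL-1β, entered the filter on low counts, the scaling and the estimate of the spread, and none of their own values is given.

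Islets are clusters of endocrine cells in the pancreas, most of them insulin-secreting beta cells in the mouse, with glucagon-secreting alpha cells, somatostatin-secreting delta cells and a few resident macrophages. IL-1β binds the receptor encoded by Il1r1, which with the accessory chain Il1rap recruits the adaptor MyD88 and IRAK kinases and releases the transcription factor NF-κB from its inhibitors. NF-κB and the C/EBP factors switch on secreted defence proteins, chemokines and their own inhibitors, and in beta cells prolonged IL-1β signalling is known for loss of insulin secretion and of mature beta cell genes.

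The libraries held 18635943 to 25955943 counts. Levels are given as CPM, counts scaled to a common library size by the TMM method, as the mean ± SD of 4 libraries or for each library. A fold change is the log2 value ± SE of IL-1β over control fitted by edgeR. A gene was called raised or lowered at a Benjamini-Hochberg adjusted p under 0.01 in edgeR's quasi-likelihood test. Because whole islets were lysed, fewer cells of a type and less RNA per cell cannot be told apart. The islet label fitted the marker genes: Ins2 and Ins1 (insulin) and Gcg (glucagon) were among the most abundant genes in both groups. The summed level of the 8 acinar markers tested was 176 to 189.6 CPM in the control libraries and 137 to 155 CPM with IL-1β. The median log2 fold change of these acinar markers was 1.37, with 2 raised and 1 lowered, so the falling sum does not describe the list. The summed level of the 3 T and B cell markers tested was 2.996 to 4.29 and 1.45 to 3.73 CPM. The p-values describe the spread between these pools.

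Of all genes tested, 11.2% were raised and 6.59% were lowered, and the changes were unequal in size. These shares over all genes are the ones to set beside the counts of members called in each list. The median log2 fold change was 0.60 for raised and -0.34 for lowered genes, against -0.03 over all genes tested. Changes of at least 2-fold were called upward in 3.51% of the genes tested (652 genes) and downward in 0.538% (100 genes). Changes of at least 4-fold were called in 256 genes upward, or 251 with genes of at most 3 counts per control library set against 3 counts in each, and in 7 genes downward. With the 8 control and IL-1β libraries alone, 17018 genes were tested and 2813 called, in place of 18587 and 3311. The split between the directions depends on the scaling, since the raised share of all calls was 63.0% with TMM, 51.5% with upper-quartile factors and 79.8% with library size alone. The CPM of the 4 control and the 4 IL-1β libraries did not overlap for 24.7% of all genes tested and for 3101 of the 3311 called genes.

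**Figure D1:**
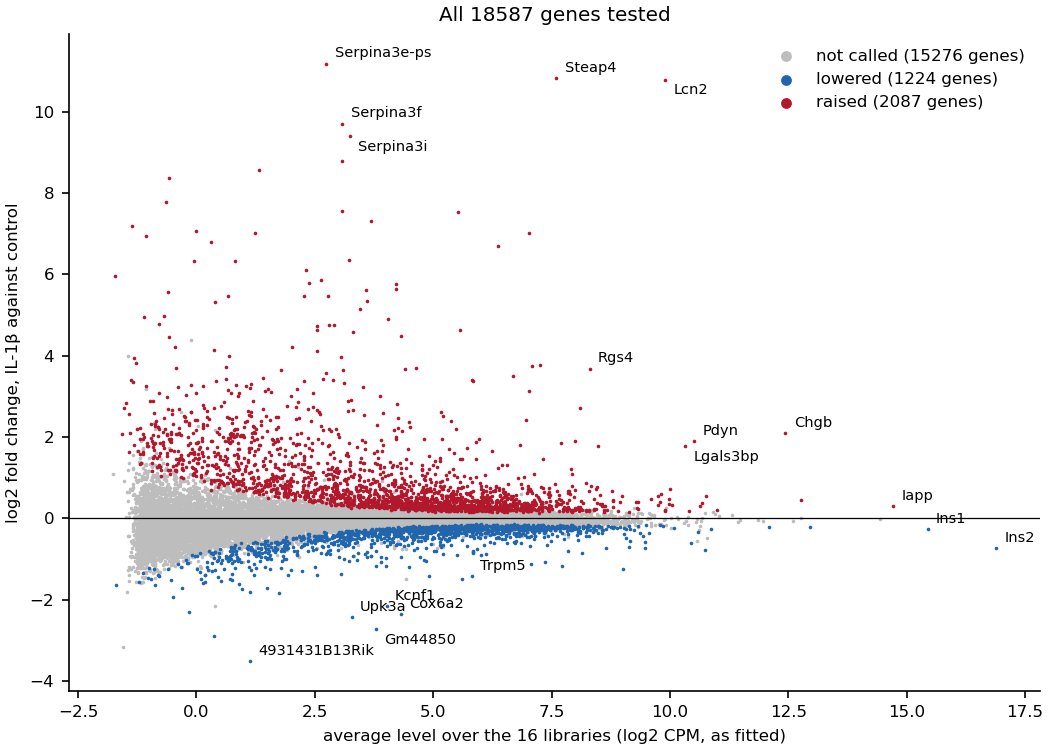
Log2 fold change of IL-1β against control (vertical axis) by average level in log2 CPM (horizontal axis) for the 18587 genes tested, each point a gene, red where raised (2087 genes), blue where lowered (1224 genes) and grey where not called. The upward changes reach further than the downward ones, with Lcn2 and Steap4 near 10.8 and the largest fall, 4931431B13Rik, at -3.50, while Ins2 and Ins1, at the right edge, are lowered.

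The 12 largest rises, among called genes whose groups did not overlap and whose average was at least 1 on the log2 CPM scale, were in genes that had at most 1.67 CPM in any control library. Lcn2, lipocalin 2, which binds bacterial iron carriers and lies at chr2:32384633-32388252, measured 0.373, 0.292, 0.717 and 1.67 CPM in control replicates 1 to 4 and 808, 1645, 1241 and 1762 CPM in IL-1β replicates 1 to 4 (log2 fold change 10.78 ± 0.64, adjusted p = 3.14e-08). Steap4, a metalloreductase that reduces iron and copper and lies at chr5:7960457-7982213, measured 0.327, 0.0417, 0.143 and 0.385 CPM in the control libraries and 419, 424, 383 and 421 CPM in the IL-1β libraries (log2 fold change 10.81 ± 0.40, adjusted p = 2.49e-10). Both genes were low in every control library and the groups were far apart, and with these changes Lcn2 became the sixth largest gain in CPM of any gene with non-overlapping groups.

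The other members of the 12 largest rises were Serpina3e-ps, Serpina3f and Serpina3i of a cluster of serine protease inhibitors, the amino acid transporter Slc6a14, the chemokine Ccl20, complement factor B (Cfb), serum amyloid Saa3, the leucine-rich glycoprotein Lrg1, the carcinoembryonic antigen family member Ceacam10 and Il1f6, which encodes the cytokine IL-36α. Saa3 measured 0.187, 0.292, 0.478 and 0.428 CPM in the control libraries and 73.9, 75.6, 48.2 and 61.9 CPM in the IL-1β libraries. Ceacam10 measured 0.70001, 0.667, 0.717 and 1.16 CPM in the control libraries and 56.3, 122, 131 and 117 CPM in the IL-1β libraries. In both genes the groups were far apart. Ccl20 had 1 count in the control libraries together and measured 5.12 to 7.94 CPM with IL-1β. Others had almost no counts in control islets. Serpina3e-ps, annotated as an unprocessed pseudogene, was at 0 counts in every control library and at least 97.7-fold higher against a floor of 3 counts per library. Serpina3i went from 0.0226 ± 0.0262 to 18.9 ± 1.54 CPM and Serpina3f from 0.0107 ± 0.0214 to 13.98 ± 1.89 CPM. Serpina3i had 2 counts over the control libraries and 1640 with IL-1β, a ratio of 847 with a 95% counting interval of 234 to 6997. The interval is exact, from counts summed over the 4 libraries of each group, and covers counting error only. Slc6a14 went from 0.0224 ± 0.0259 to 12.4 ± 2.31 CPM, Lrg1 from 0.0557 ± 0.0439 to 9.56 ± 4.25 CPM and Il1f6 from 0.0214 ± 0.0428 to 3.62 ± 0.415 CPM. Il1f6 had 2 counts over the control libraries and 316 with IL-1β, a ratio of 163 with an interval of 44.8 to 1353. The control and IL-1β libraries did not overlap for any of these genes. The Serpina3 genes are close paralogs whose reads could be split among them, and 79.5% of the exon length of Cfb is shared with another annotated gene, so the counts of these single genes are uncertain.

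**Figure D2:**
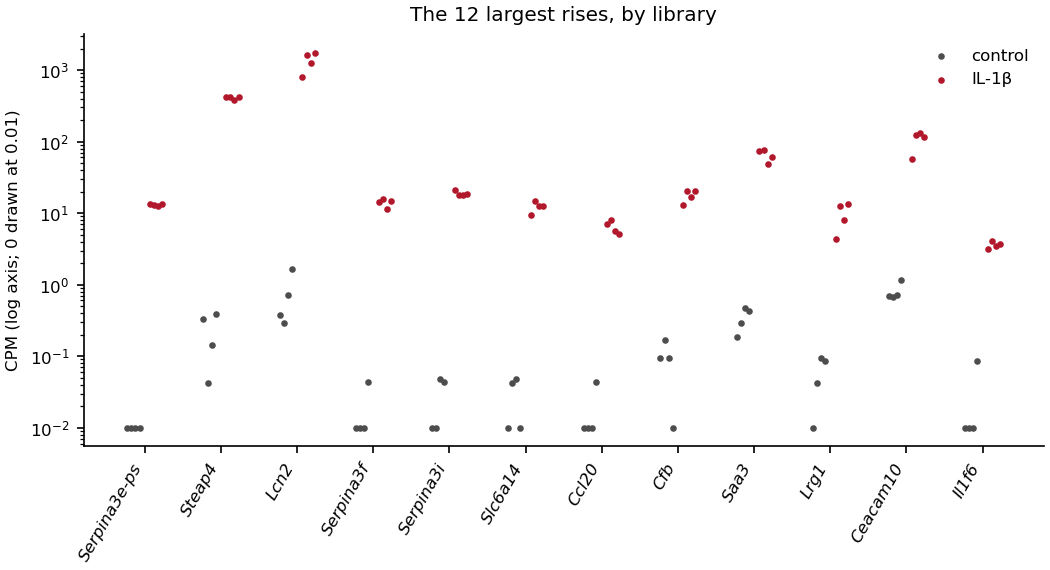
CPM on a log axis for each of the 4 control (grey) and the 4 IL-1β libraries (red) of the 12 genes with the largest rises, with 0 drawn at 0.01. In every gene the 4 IL-1β libraries lie above the 4 control libraries, and the highest control level is 1.67 CPM (Lcn2).

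The promoters of these genes are shown because NF-κB, the factor that the IL-1 receptor activates, binds a short motif that can be searched for. The letters GGGNNTTTCC or GGGNNTTCCC, on either strand, were looked for in the 300 bases around each RefSeq start site (GRCm38.p6). They were present in 3.70% of the 15999 promoters of 12545 tested genes and in 11.9% of the 235 promoters of genes raised at least 4-fold (28 promoters, 24 genes). The share was 8.90% for genes raised at least 2-fold, 4.47% for genes raised less than that and 2.82% for lowered genes. Besides Steap4, Serpina3i and Ccl20, the genes raised at least 4-fold with such letters included Cxcl1, Serpina3n, H2-Aa, Muc13, Casp4, Nfkb2 with 3 such promoters, H2-Q6 and Bcl3. The letters TTTCNNTTTC of interferon response elements were found in 6.81% of promoters of genes raised at least 4-fold and in 3.01% of all, and the C/EBP letters TTGCGNAA in 2.13% and 1.13%. Of the 12 largest rises 9 had a listed promoter, and the 3 that held the NF-κB letters (in capitals, overlapping matches run together) are given 5′ to 3′, Steap4 at chr5:7960222-7960521, Serpina3i at chr12:104262872-104263171 and Ccl20 at chr1:83116516-83116815, all on the plus strand. Counted from the start site, the first match begins at -226 in Steap4, -154 in Serpina3i and -81 in Ccl20.
Steap4: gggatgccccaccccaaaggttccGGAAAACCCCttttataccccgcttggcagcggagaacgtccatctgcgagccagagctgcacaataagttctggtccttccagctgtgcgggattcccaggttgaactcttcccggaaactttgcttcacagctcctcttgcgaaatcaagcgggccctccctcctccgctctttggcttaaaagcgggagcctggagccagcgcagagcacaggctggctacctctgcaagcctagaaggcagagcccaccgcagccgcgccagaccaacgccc
Serpina3i: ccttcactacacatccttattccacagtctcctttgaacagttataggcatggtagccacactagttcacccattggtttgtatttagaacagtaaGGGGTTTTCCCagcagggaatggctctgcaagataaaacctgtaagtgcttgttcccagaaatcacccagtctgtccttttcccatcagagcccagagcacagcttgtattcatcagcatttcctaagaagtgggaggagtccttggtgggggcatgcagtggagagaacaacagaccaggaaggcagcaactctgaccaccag
Ccl20: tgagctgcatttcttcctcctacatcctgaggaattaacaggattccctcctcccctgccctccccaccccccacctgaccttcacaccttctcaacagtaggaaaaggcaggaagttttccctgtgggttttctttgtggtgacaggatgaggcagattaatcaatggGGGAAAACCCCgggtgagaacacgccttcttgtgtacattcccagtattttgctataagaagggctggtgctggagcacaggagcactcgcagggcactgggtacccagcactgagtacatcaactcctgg

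Acute phase proteins are blood proteins that the liver makes in inflammation. Of a list of 43 such proteins and of other antimicrobial and bacterial sensing genes, 26 had enough counts to be tested, of which 23 were raised and none was lowered, where 11.2% and 6.59% of all genes were. As 13 of the 26 had at most 3 counts in each control library and could pass the filter on low counts only where they were higher, nothing is read from this count. The median was 5.98 on the log2 scale, or 2.81 with the 13 members with at most 3 counts in each control library set against 3 counts in each. Ceruloplasmin (Cp), the copper-carrying ferroxidase, measured 1.26, 1.38, 1.19 and 2.14 CPM in the control libraries and 128, 171, 146 and 185 CPM in the IL-1β libraries (log2 fold change 6.71 ± 0.24, adjusted p = 1.41e-10). Haptoglobin (Hp), which binds haemoglobin, went from 0.0892 ± 0.0842 to 6.39 ± 2.26 CPM. The protease inhibitor Serpina3n went from 0.242 ± 0.127 to 14.5 ± 1.803 CPM, and the antileukoprotease Slpi from 0.0897 ± 0.0358 to 5.15 ± 2.07 CPM. All 3 fibrinogen chains, Fga, Fgb and Fgg, which lie side by side, were raised, with Fgb measuring 0.793, 0.751, 0.573 and 0.685 CPM in the control libraries and 3.83, 5.06, 3.47 and 3.72 CPM in the IL-1β libraries. Bacterial sensing and transport genes moved the same way, with the lipopolysaccharide co-receptor Cd14 raised 4.195-fold and Pigr, which carries antibodies across epithelia, raised 4.47-fold, from 6.59 ± 1.24 to 29.3 ± 6.21 CPM. Saa1 was at 0 counts in all control libraries and at least 5.38-fold higher with IL-1β. The members that did not pass included Saa2 (0.0107 and 0.134 CPM, adjusted p = 0.0321) and the antimicrobial Reg3b (0.0358 and 0.604 CPM, adjusted p = 0.0128), both at levels of a few counts and both called without IL-1β replicate 1 (adjusted p = 0.00917 and 0.00157).

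Of 29 complement genes tested 14 were raised and 2 lowered, or 48.3% and 6.90%, beside 11.2% and 6.59% of all genes. The median log2 fold change of the list was 0.75. C3, the component on which all complement pathways meet, measured 12.7, 17.4, 17.01 and 16.1 CPM in the control libraries and 149.6, 248, 226 and 242 CPM in the IL-1β libraries (log2 fold change 3.77 ± 0.19, adjusted p = 3.77e-09). Serping1, the inhibitor of the first component, measured 31.9, 30.6, 32.5 and 29.1 CPM in the control libraries and 221, 296, 252 and 316 CPM in the IL-1β libraries. The classical pathway gene C4b went from 0.108 ± 0.158 to 1.48 ± 0.537 CPM and the protease C1ra from 0.569 ± 0.221 to 3.503 ± 0.462 CPM. C8b, a subunit of the membrane attack complex, was one of the 2 lowered members, from 35.2 ± 2.51 to 17.5 ± 1.84 CPM (log2 fold change -1.01 ± 0.08), and the other, C1qa, whose call depends on single libraries, is described with the macrophage markers. Part of the exons of C2 (46.9%), raised 3.27-fold, is shared with another gene.

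Among the NF-κB subunits, inhibitors and feedback genes, 20 of 34 were raised and none was lowered, with a median of 0.41. Without IL-1β replicate 1, and with RLE or upper-quartile factors, DESeq2, limma-voom or a filter of 1 CPM, 1 member was lowered. Feedback inhibitors were among the larger rises. The RNase Zc3h12a, which degrades cytokine transcripts, went from 0.998 ± 0.172 to 29.6 ± 2.11 CPM (log2 fold change 4.89 ± 0.12, adjusted p = 9.36e-22), and the inhibitor IκBα (Nfkbia) from 25.8 ± 1.598 to 86.3 ± 6.81 CPM. The ubiquitin editor A20 (Tnfaip3) went from 5.49 ± 0.513 to 20.2 ± 1.68 CPM, the IκB family member Bcl3 from 6.66 ± 1.02 to 26.7 ± 2.003 CPM and the apoptosis inhibitor Birc3 from 9.59 ± 1.69 to 54.7 ± 1.16 CPM. The subunits differed. Nfkb2 and Relb, of the non-canonical pathway, were raised 6.14-fold and 3.48-fold, and Nfkb1 only 1.25-fold, with all 4 IL-1β libraries of Nfkb1 (76.0 to 84.2 CPM) above the control libraries (63.5 to 65.0 CPM). Rela, the main canonical subunit, measured 35.9 to 37.1 CPM in the control libraries and 38.5 to 40.8 CPM with IL-1β and was not called (log2 fold change 0.13 ± 0.05, adjusted p = 0.053, and 0.00691 with library size as the only scaling). Of the 2 adhesion molecule genes, Icam1, which binds leukocytes, went from 0.422 ± 0.080999 to 20.99 ± 2.02 CPM (log2 fold change 5.62 ± 0.20). Vcam1 measured 1.54 to 2.74 CPM in the control libraries and 0.827 to 2.17 CPM with IL-1β and was not called (adjusted p = 0.138).

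Of the 15 C/EBP and acute phase transcription factors tested, 9 were raised and none was lowered. Cebpd, which drives acute phase genes, measured 3.17, 3.25, 3.201 and 2.57 CPM in the control libraries and 84.9, 82.8, 67.02 and 67.7 CPM in the IL-1β libraries (log2 fold change 4.63 ± 0.19, adjusted p = 3.39e-10). Cebpa went from 1.01 ± 0.257 to 3.88 ± 0.9203 CPM and Cebpb from 20.3 ± 1.0999 to 24.7 ± 1.63 CPM, a change of only 1.21-fold. The epithelial ETS factors Ehf and Elf3 were raised 3.88-fold and 2.59-fold. Batf, an AP-1 factor of immune cells, had 3 counts over the control libraries and 93 with IL-1β, a ratio of 32.01 with an interval of 10.6 to 158. Spi1, the factor that defines macrophages, was raised 5.56-fold, and the macrophage markers that moved with it are given with the class II genes.

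Of the 25 IL-1 family ligands, receptors and adaptors tested 9 were raised and 2 lowered. The receptor gene Il1r1 was abundant, at 667, 632, 599.7 and 588 CPM in the control libraries and 717, 706, 673 and 651 CPM in the IL-1β libraries, and missed the threshold (log2 fold change 0.14 ± 0.05, adjusted p = 0.0319). It was called without IL-1β replicate 4 (adjusted p = 0.00842) and with library size as the only scaling (adjusted p = 0.000409). Il1rap went from a mean of 4.76 to 4.94 CPM and was not called (adjusted p = 0.797). Per kilobase of exon, Il1r1 had 97.7 ± 5.58 CPM and Il1rap 0.419 ± 0.0265 CPM in control islets. The inhibitory kinase homologue Irak3 was raised from 4.96 ± 0.522 to 11.1 ± 0.542 CPM (log2 fold change 1.16 ± 0.10). The IL-18 binding protein Il18bp, a secreted antagonist, went from 8.66 ± 0.845 to 19.9 ± 1.42 CPM, and Il1b itself from 2.31 ± 0.501 to 4.75 ± 1.08 CPM. The kinases Irak2 and Irak4 were raised 1.499-fold and 1.496-fold, while Irak1 and the ligase Traf6 were lowered 1.22-fold and 1.19-fold. The IL-18 receptor chains Il18r1 and Il18rap, which lie on chromosome 1 beside Il1r1, were both raised, Il18r1 4.71-fold. Il18rap had 6 counts over the control libraries and 116 with IL-1β, a ratio of 19.96 with an interval of 8.898 to 55.5.

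An unclassified transcript, Gm38070, which was the tenth largest gain in CPM, lies at chr1:40238020-40244499 on the plus strand, inside the intron of Il1r1 that spans chr1:40225307-40266585 on the same strand. Gm38070 measured 78.3, 82.1, 76.5 and 73.3 CPM in the control libraries and 545, 529, 466 and 482 CPM in the IL-1β libraries (log2 fold change 2.70 ± 0.11, adjusted p = 1.19e-11), a 6.52-fold rise beside 1.104-fold for the exons of Il1r1. It shares no exon with Il1r1, but reads from unspliced or extended Il1r1 transcripts would be counted on it and cannot be told apart from a transcript of its own.

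In the IL-6 family, JAK-STAT and SOCS list 11 of 34 members were raised and 2 lowered. Stat3, the factor downstream of IL-6 type cytokines, went from 150.1 ± 8.18 to 321 ± 12.9 CPM (log2 fold change 1.10 ± 0.05, adjusted p = 1.04e-15). Its inhibitor Socs3 went from 8.65 ± 0.168 to 27.996 ± 3.19 CPM, the kinase Jak3 from 6.78 ± 0.375 to 26.2 ± 1.72 CPM and the ligand Lif from 1.61 ± 0.1897 to 10.3 ± 0.3804 CPM. The 2 lowered members were receptor chains, while the 3 other receptor chains of the IL-6 family that were tested were not called. The shared chain Il6st (gp130) was lowered from 142 ± 3.01 to 120.4 ± 6.46 CPM. Lifr, which binds LIF, was lowered from 130.1 ± 2.96 to 98.01 ± 8.56 CPM (log2 fold change -0.41 ± 0.06, adjusted p = 2.05e-06). The receptor chains of IL-4 and IL-13, Il4ra and Il13ra1, were raised 2.205-fold and 2.31-fold.

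Of the TNF ligands, receptors and adaptors 13 of 41 were raised and 4 lowered. The decoy receptor osteoprotegerin (Tnfrsf11b) had the largest rise of the list, from 1.65 ± 0.364 to 16.7 ± 4.13 CPM. It was followed by the co-stimulatory receptor Cd40 from 0.679 ± 0.299 to 3.397 ± 0.437 CPM, the death receptor Fas from 0.464 ± 0.196 to 2.06 ± 0.318 CPM and the second TNF receptor Tnfrsf1b from 0.806 ± 0.168 to 3.29 ± 0.632 CPM. The first TNF receptor, Tnfrsf1a, was raised 1.85-fold, and the ligand TRAIL (Tnfsf10) 2.56-fold.

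Of the 17 chemokine genes tested 7 were raised and none was lowered, with a median of 0.90. Neutrophil-attracting Cxcl1 measured 0.187, 0.375, 0.334 and 0.385 CPM in the control libraries and 26.5, 26.4, 27.6 and 26.4 CPM in the IL-1β libraries (log2 fold change 6.34 ± 0.29, adjusted p = 6.98e-11). Its relative Cxcl5, at 0 counts in every control library, was at least 13.9-fold higher. Ccl28, a mucosal chemokine, was the most abundant, at 20.1, 20.4, 17.8 and 19.3 CPM in the control libraries and 224, 238, 211 and 211 CPM in the IL-1β libraries. In comparison the interferon-induced T cell chemokines were low. Cxcl10 went from 0.604 ± 0.222 to 1.49 ± 0.319 CPM. Cxcl9 measured 0.42998 to 0.876 CPM in the control libraries and 0.207 to 0.633 CPM with IL-1β and was not called (log2 fold change -0.65 ± 0.36, adjusted p = 0.205).

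**Figure D3:**
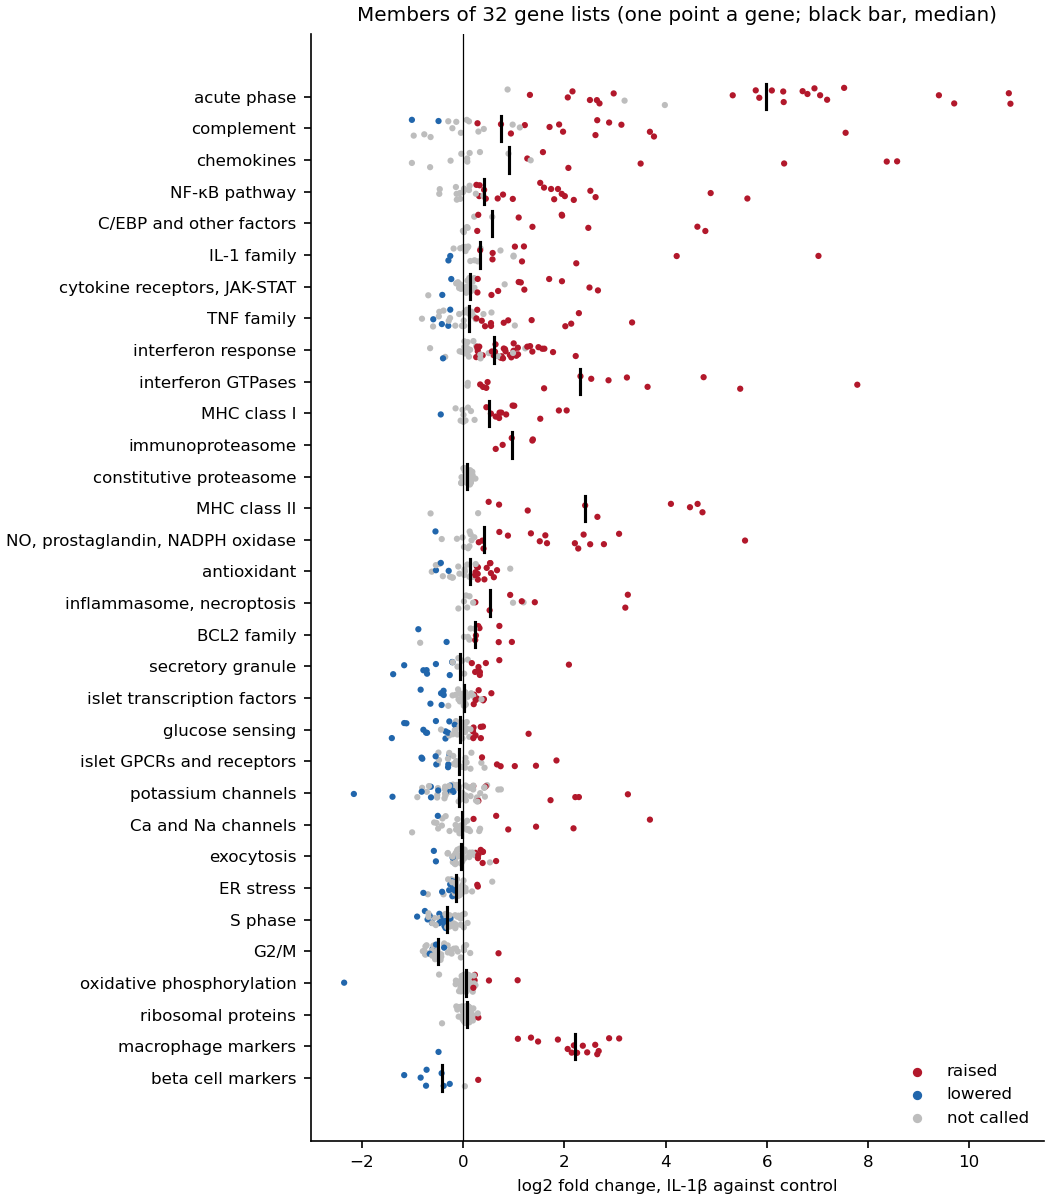
Log2 fold change of IL-1β against control (horizontal axis) for the tested members of 32 gene lists (vertical axis), each point a gene, red where raised, blue where lowered and grey where not called, with the median of each list as a black bar. The constitutive proteasome and ribosomal protein lists lie close to 0 (medians 0.07 and 0.07), and the S phase and beta cell marker lists have medians below 0 (-0.31 and -0.42). The acute phase list lies furthest to the right (median 5.98), but 13 of its 26 members had at most 3 counts in each control library. Its median is 2.81 with those set against 3 counts, and nothing is read from its place.

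Of the interferon signalling and stimulated genes 32 of 54 were raised and 1 was lowered, with a median of 0.62. The most abundant was Lgals3bp, a secreted galectin-binding glycoprotein, at 573, 577, 572 and 595 CPM in the control libraries and 1844, 2107, 1895 and 2095 CPM in the IL-1β libraries (log2 fold change 1.78 ± 0.05, adjusted p = 1.34e-19). Irf1, the interferon regulatory factor that NF-κB also induces, went from 37.8 ± 1.22 to 63.3 ± 2.58 CPM, Irf5 from 0.568 ± 0.241 to 2.66 ± 0.468 CPM, Irf7 from 2.21 ± 0.354 to 3.91 ± 0.698 CPM and Irf8 from 2.33 ± 0.243 to 4.63 ± 1.17 CPM. The antiviral genes Oasl2 and Bst2 were raised 2.12-fold and 2.07-fold and the interferon-γ receptor chain Ifngr2 2.81-fold. Rsad2 (viperin) was the lowered member, from 10.9 ± 0.851 to 8.2996 ± 0.779 CPM (log2 fold change -0.40 ± 0.09).

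The interferon-inducible GTPases, which attack the vacuoles of intracellular microbes, had 13 of 15 members raised, none lowered and a median of 2.32. In the Gbp cluster on chromosome 5, Gbp6 measured 0.187, 0.208, 0.191 and 0.214 CPM in the control libraries and 9.56, 8.23, 9.02 and 9.82 CPM in the IL-1β libraries (log2 fold change 5.48 ± 0.21, adjusted p = 2.74e-17). Gbp9 went from 0.595 ± 0.166 to 16.02 ± 2.45 CPM and Gbp4 from 1.36 ± 0.265 to 17.1 ± 5.09 CPM. Gbp10 was at 0 counts in control islets and at least 9.32-fold higher. The IRG family members changed less, with Irgm1 raised 1.399-fold and Igtp 1.37-fold. The Gbp genes are close paralogs, so the counts of each are less certain than those of the cluster.

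Of the 22 genes of MHC class I presentation 12 were raised and 1 was lowered, with a median of 0.50. The light chain B2m measured 14.2, 16.4, 15.9 and 18.1 CPM in the control libraries and 41.9, 51.4, 47.1 and 45.8 CPM in the IL-1β libraries (log2 fold change 1.53 ± 0.07). The class I heavy chains H2-K1 and H2-D1 were raised 1.46-fold and 1.64-fold from already high levels (from 409.8 to 599.8 CPM and from 255 to 418 CPM). The loading factor tapasin (Tapbp) went from 158 ± 10.9 to 284 ± 14.98 CPM and Nlrc5, which activates class I genes, from 0.624 ± 0.183 to 2.33 ± 0.248 CPM. The non-classical H2-Q6 was raised 4.13-fold and H2-Q2 was lowered 1.36-fold, but the H2 genes are near-identical in part and reads may be shared among them. All 5 genes of the immunoproteasome and its activator, which cut proteins into class I peptides, were raised, with Psmb8 from 7.18 ± 0.754 to 18.5 ± 1.89 CPM and Psmb10 from 13.3 ± 0.754 to 34.5 ± 3.595 CPM. None of the 34 constitutive proteasome subunits was called, and their log2 fold changes lay between -0.04 and 0.24, although 13 of them were raised with library size as the only scaling, 4 without the filter on low counts, 2 without IL-1β replicate 3 and 5 without IL-1β replicate 4.

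MHC class II genes, normally expressed by antigen-presenting cells, had 9 of 11 tested members raised and a median of 2.41. H2-Aa measured 0.187, 0.292, 0.717 and 0.514 CPM in the control libraries and 12.9, 7.16, 8.03 and 16.9 CPM in the IL-1β libraries (log2 fold change 4.73 ± 0.49, adjusted p = 7.67e-06). The invariant chain Cd74 measured 1.49, 1.25, 2.25 and 2.397 CPM in the control libraries and 41.9, 27.7, 30.2 and 63.7 CPM in the IL-1β libraries. The cysteine protease Ctss, which cleaves that chain, went from 3.62 ± 0.669 to 22.7 ± 6.62 CPM. In H2-Aa, Cd74, H2-Ab1 and H2-Eb1 alike, replicate 4 was the highest and replicate 1 the second of the IL-1β libraries, and all 4 lay above the control libraries. Ciita, the class II transactivator, measured 1.21 to 1.53 CPM in the control libraries and 1.31 to 2.201 CPM with IL-1β and was not called (log2 fold change 0.30 ± 0.20, adjusted p = 0.318).

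Macrophage markers were also higher with IL-1β. Of the 17 markers 16 were tested, of which 15 were raised and 1, C1qa, was lowered, with a median of 2.22. The pan-leukocyte gene Ptprc (CD45) went from 1.8997 ± 0.661 to 7.98 ± 1.87 CPM, the macrophage growth factor receptor Csf1r from 3.19 ± 0.657 to 14.5 ± 3.86 CPM. The surface receptor Adgre1 (F4/80) went from 1.79 ± 0.628 to 9.74 ± 2.77 CPM, the fractalkine receptor Cx3cr1 from 1.78 ± 0.349 to 11.4 ± 2.94 CPM and lysozyme (Lyz2) from 10.1 ± 2.21 to 48.1 ± 10.4 CPM. Their summed level without C1qa was 32.6 to 50.0 CPM in the control libraries and 152, 195, 210.3 and 264 CPM in IL-1β replicates 1 to 4. Replicate 4 was thus the highest, as for the class II genes, but replicate 1, second for those, was the lowest. The defining marker Itgam (CD11b) was at 0.0417 to 0.214 CPM in the control libraries and 0.517 to 1.26 CPM with IL-1β. C1qa did not behave like the other chains of the C1q complex. Per kilobase of exon it had 107 ± 10.7 CPM in control islets, where C1qb had 3.01 ± 0.628 and C1qc 1.47 ± 0.204. It was lowered (log2 fold change -0.49 ± 0.12, adjusted p = 0.00765, up to 0.0292 and above the threshold in 6 of the 8 fits that leave out 1 library, all but those without control replicate 4 or IL-1β replicate 1). C1qb and C1qc were raised 6.28-fold and 7.39-fold. The part of the macrophage genes in the class II, interferon, NADPH oxidase and complement results was not tested. Neutrophil markers were mostly too low to test. Of the 2 of 8 tested, the growth factor receptor Csf3r was raised from 0.277 ± 0.0927 to 0.913 ± 0.3398 CPM (log2 fold change 1.72 ± 0.39, adjusted p = 0.00122), but not without IL-1β replicate 4 (adjusted p = 0.0102). None of the 3 tested T and B cell markers and of the 5 Schwann cell markers was called, although 1 Schwann cell marker was lowered without IL-1β replicate 3.

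**Figure D4:**
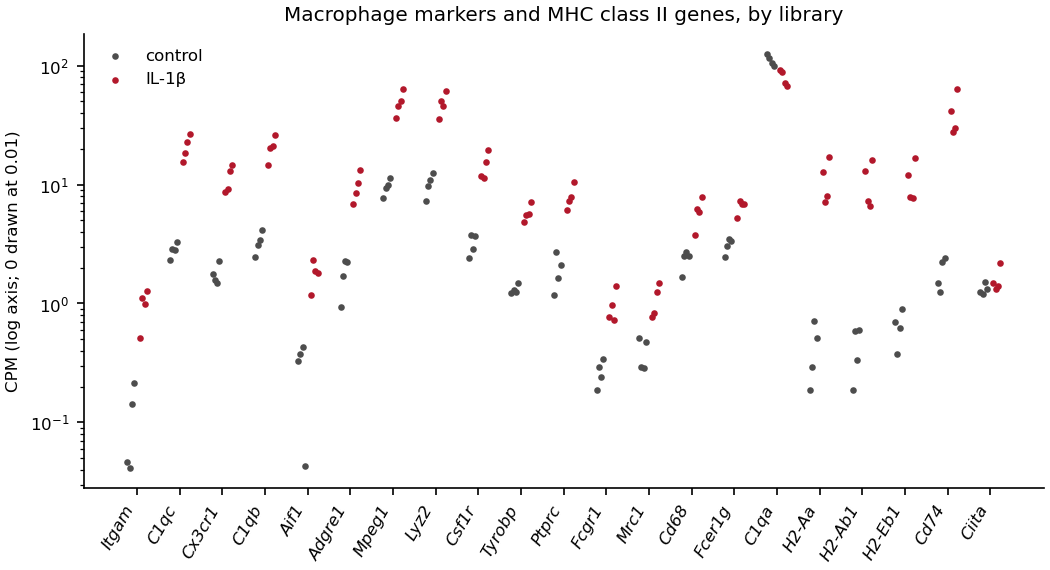
CPM on a log axis for each of the 4 control (grey) and the 4 IL-1β libraries (red) of the 16 tested macrophage markers, ordered by fold change, and of 5 MHC class II genes. All markers but C1qa lie higher in the 4 IL-1β libraries than in the 4 control libraries, C1qa is the most abundant marker and lies lower, and the Ciita libraries of both groups lie between 1.21 and 2.20 CPM.

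Of 27 genes that make, break down or supply nitric oxide, prostaglandins and superoxide 16 were raised and 1 was lowered. These are 59.3% and 3.70%, beside 11.2% and 6.59% of all genes. The cyclooxygenase genes Ptgs2, the inducible form, and Ptgs1 went from 0.309 ± 0.0637 to 2.204 ± 0.638 CPM and from 0.459 ± 0.102 to 3.87 ± 1.21 CPM. Hpgd, which degrades prostaglandins, went from 0.929 ± 0.321 to 4.32 ± 0.552 CPM, so that genes of both synthesis and breakdown were raised. Ptges, a prostaglandin E synthase, measured 12.5 to 15.7 CPM in the control libraries and 12.9 to 17.9 CPM with IL-1β and was not called (adjusted p = 0.514). The inducible nitric oxide synthase Nos2 was raised. Nos2 had 3 counts over the control libraries and 162 with IL-1β, a ratio of 55.8 with an interval of 18.7 to 273. Ass1, which recycles its by-product to arginine, was raised 2.53-fold. The lowered member, Slc7a2, imports arginine and was abundant, going from 691 ± 33.7 to 473 ± 42.1 CPM (log2 fold change -0.55 ± 0.06, adjusted p = 1.73e-08). The phagocyte NADPH oxidase subunits Cybb, Cyba, Ncf1 and Ncf4 were raised 4.84-fold, 5.21-fold, 3.08-fold and 5.701-fold.

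Antioxidant enzymes changed less, with 13 of 34 raised, 3 lowered (5 without IL-1β replicate 1, with upper-quartile factors or without the filter) and none changed by 2-fold. Among them Gpx1, the main glutathione peroxidase, went from 53.2 ± 2.26 to 77.5 ± 7.81 CPM, the peroxiredoxin Prdx4 of the endoplasmic reticulum from 17.9 ± 0.975 to 25.8 ± 3.06 CPM, and the regulator Nfe2l2 (NRF2) of antioxidant genes from 36.04 ± 3.03 to 55.04 ± 4.802 CPM. Txnip, the inhibitor of thioredoxin, was raised 1.59-fold. The cystine importer Slc7a11, which feeds glutathione synthesis, was lowered from 31.1 ± 1.72 to 21.6 ± 3.64 CPM. The metallothionein Mt1 went from 23.02 ± 6.27 to 15.9 ± 6.22 CPM and was not called (adjusted p = 0.19).

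Genes of inflammatory cell death were raised in 7 of 15 cases, with none lowered. Casp4, the caspase that senses intracellular lipopolysaccharide, measured 0.373, 0.625, 0.573 and 0.514 CPM in the control libraries and 4.91, 5.74, 3.63 and 5.16 CPM in the IL-1β libraries (log2 fold change 3.21 ± 0.22, adjusted p = 8.89e-12). Casp1, which matures IL-1β, went from 0.292 ± 0.211 to 2.81 ± 0.182 CPM, the pore-forming Gsdmd from 5.91 ± 1.36 to 13.2 ± 0.931 CPM and the necroptosis effector Mlkl from 1.67 ± 0.0804 to 4.48 ± 0.374 CPM. Of the BCL2 family 7 of 15 were raised and 2 lowered. The raised included the death-promoting Bid and Bak1 1.95-fold and 1.64-fold, and the protective Bcl2l1 and Mcl1 1.25-fold and 1.23-fold. The lowered were the death-promoting Bbc3 (PUMA), from 17.8 ± 0.546 to 14.1 ± 1.56 CPM, and Hrk, from 1.68 ± 0.484 to 0.919 ± 0.389 CPM (adjusted p = 0.00976). Of the 8 fits that leave out 1 library, Hrk kept its call only in those without control replicate 1 or IL-1β replicate 3 (adjusted p up to 0.0531), and Bbc3 lost it without IL-1β replicate 1 (adjusted p = 0.0113). None of the family was lowered without IL-1β replicate 1 or with library size as the only scaling, and 1 without control replicate 2, 3 or 4 or IL-1β replicate 2.

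The genes of the secretory granule, where insulin is processed and stored, had 9 of 24 members raised and 9 lowered, with a median of -0.06. Lowered members numbered 5 without control replicate 1, IL-1β replicate 3 or IL-1β replicate 4, and raised members 5 without control replicate 3. Ins2 had the largest loss in CPM of any gene, at 138961, 156660.0, 142844 and 142085 CPM in control replicates 1 to 4 and 89499, 99883, 89154 and 73648 CPM in IL-1β replicates 1 to 4 (log2 fold change -0.72 ± 0.08, adjusted p = 2.27e-07). Ins1 measured 53891, 54244, 49740.0 and 48156 CPM in the control libraries and 44726, 46449, 42735 and 37746 CPM in the IL-1β libraries (log2 fold change -0.26 ± 0.07, adjusted p = 0.00506, and between the threshold and 0.0303 without control replicate 1, control replicate 2, IL-1β replicate 3 or IL-1β replicate 4). The call of Ins1 was also lost when only the 8 control and IL-1β libraries were fitted (adjusted p = 0.0185). The zinc transporter Slc30a8, which loads the granule with the zinc that insulin crystallises with, was lowered from 718 ± 46.8 to 438 ± 36.9 CPM, and the insulin-folding oxidase Ero1lb from 1932 ± 50.5 to 1122 ± 147 CPM. The peptide Ucn3 of mature beta cells was lowered from 313 ± 11.8 to 139.7 ± 6.46 CPM and neuropeptide Y (Npy) from 9.32 ± 2.55 to 3.64 ± 0.8797 CPM. Scg2, a granin, and the convertase Pcsk2 were lowered only 1.16-fold and 1.16-fold, and lost their call in some of the 8 fits that leave out 1 library. Scg2 kept it only without IL-1β replicate 1 or 2 (adjusted p up to 0.0501), and Pcsk2 lost it without control replicate 1, IL-1β replicate 3 or IL-1β replicate 4 (adjusted p up to 0.0246). Both also lost it with library size as the only scaling (adjusted p = 0.0133 and 0.0134) and when only the 8 libraries were fitted (adjusted p = 0.0272 and 0.0197).

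Other granule genes rose in the same islets. Chgb, chromogranin B, a granule matrix protein, had the largest gain in CPM of any gene, at 1973, 1930.0, 1864 and 1973 CPM in the control libraries and 6488, 9263, 7778 and 9446 CPM in the IL-1β libraries (log2 fold change 2.09 ± 0.14, adjusted p = 2.71e-08). The gene of its relative chromogranin A, Chga, was not called (adjusted p = 0.839). Per kilobase of exon, Chga had 2166.4 ± 58.5 CPM in control islets and 2199 ± 140.4 with IL-1β, where Chgb had 706 ± 18.9 and 3009 ± 507. Chgb was thus the lower of the pair in control islets and the higher with IL-1β. The convertase Pcsk1, which makes the first cut in proinsulin, was raised from 843 ± 59.6 to 1384 ± 57.6 CPM, and carboxypeptidase E (Cpe), which trims the cut ends, from 6416 ± 392 to 8765 ± 835 CPM. Iapp, the amyloid peptide released with insulin, was raised from 21969.9 ± 1269.9 to 27034 ± 3014 CPM (adjusted p = 0.00185, and above the threshold without control replicate 3, at 0.0122, or without IL-1β replicate 2). Large gains outside the granule list were seen for prodynorphin (Pdyn), an opioid peptide precursor, at 469.6, 463, 570.5 and 552 CPM in the control libraries and 1898, 2039.8, 1962 and 1781 CPM in the IL-1β libraries (log2 fold change 1.90 ± 0.11). Rgs4, which shortens signalling by G proteins, measured 44.7, 38.7, 45.8 and 42.8 CPM in the control libraries and 516, 586, 539.9 and 564 CPM in the IL-1β libraries (log2 fold change 3.68 ± 0.16).

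**Figure D5:**
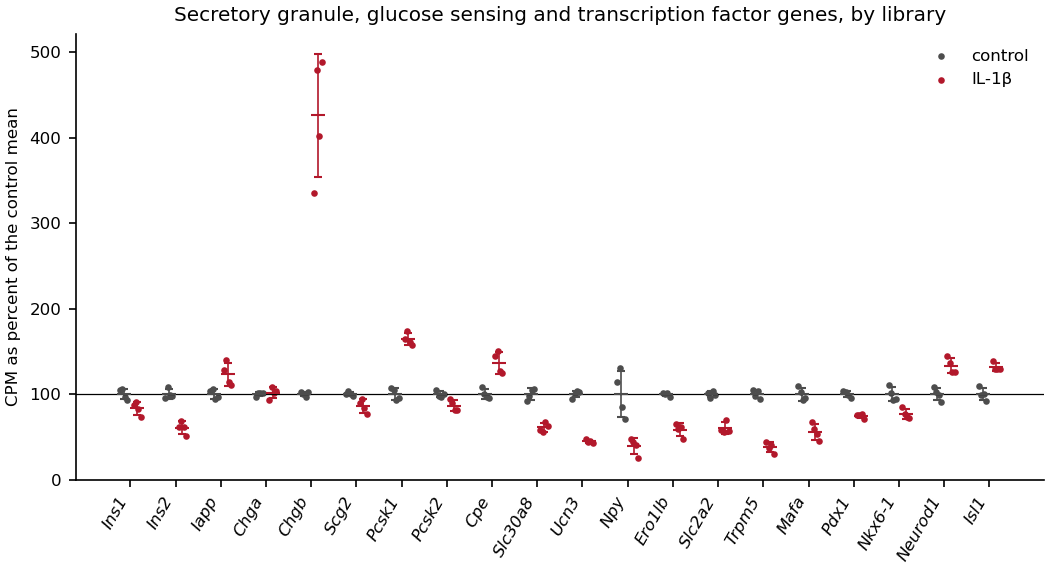
CPM as a percentage of the control mean for each of the 4 control (grey) and the 4 IL-1β libraries (red) of 20 secretory granule, glucose sensing and islet transcription factor genes, with bars for the mean and the SD of 4 libraries. Chgb stands far above 100%, Iapp, Pcsk1, Cpe, Neurod1 and Isl1 lie above it, Chga lies at it, and Ins2, Slc30a8, Ucn3, Ero1lb, Slc2a2 and Trpm5 lie below it in every IL-1β library.

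Islet transcription factors also moved both ways, with 8 of 37 raised and 6 lowered, none by 2-fold. Of the 9 beta cell markers, which overlap with these lists, 7 were lowered and Iapp was raised, with a summed level of 214585 to 237394 CPM in the control libraries and 137903 to 179595 CPM with IL-1β. Of 8 alpha cell markers 1 was raised and 2 lowered, or 12.5% and 25%, beside 11.2% and 6.59% of all genes. None of 6 delta and PP cell markers was called. Mafa, which marks mature beta cells, was lowered from 396 ± 30.2 to 222 ± 36.6 CPM (log2 fold change -0.84 ± 0.18, adjusted p = 0.00337, and between the threshold and 0.0134 without the same 4 libraries as for Ins1). Pdx1 was lowered from 209.9 ± 8.12 to 157 ± 5.28 CPM and Nkx6-1 from 575 ± 46.4 to 441 ± 30.8 CPM. Raised were Neurod1 from 191 ± 13.9 to 254 ± 17.2 CPM, Isl1 from 149 ± 10.9 to 196 ± 6.72 CPM and Esrrg, a nuclear receptor of beta cell maturation, from 14.1 ± 1.86 to 20.8 ± 0.874 CPM. Of 21 progenitor and dedifferentiation genes 6 were raised and 2 lowered, or 28.6% and 9.52%, beside 11.2% and 6.59% of all genes. The largest rise of the list (log2 fold change 3.74) was in Spp1, a duct marker that macrophages also make. Neurog3, the factor of endocrine progenitors, was raised 1.62-fold. Aldh1a3, a marker of dedifferentiated beta cells, measured 14.3 to 24.9 CPM in the control libraries and 9.74 to 14.2 CPM with IL-1β and was not called (log2 fold change -0.73 ± 0.31, adjusted p = 0.114). Of the beta cell disallowed genes, which mature beta cells keep off, 3 of 24 were raised and 3 lowered, or 12.5% each, beside 11.2% and 6.59% of all genes. The largest change among them was in Igfbp4, an insulin-like growth factor binding protein, from 1.36 ± 0.523 to 10.1 ± 0.613 CPM, while the hexokinase Hk1 was lowered from 5.801 ± 0.703 to 3.72 ± 0.216 CPM.

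Of 45 glucose sensing and stimulus-secretion genes 13 were lowered and 9 raised, the latter 5 without control replicate 3 and 4 without control replicate 4. The calcium-activated cation channel Trpm5 had the largest fall of the list, at 87.8, 81.97, 86.9 and 78.9 CPM in the control libraries and 36.4, 31.3, 34.2 and 25.3 CPM in the IL-1β libraries (log2 fold change -1.41 ± 0.15, adjusted p = 9.09e-06). The glucose transporter Slc2a2 (GLUT2) was lowered from 518 ± 19.3 to 312 ± 34.5 CPM, and the phosphatase inhibitor Ppp1r1a from 199.6 ± 18.9 to 91.99 ± 13.02 CPM. Pyruvate carboxylase (Pcx) was lowered from 121 ± 5.11 to 94.7 ± 4.096 CPM, the fatty acid receptor Ffar1 from 184 ± 7.9004 to 149.9 ± 6.62 CPM and the potassium channel subunit Kcnj11 from 141 ± 2.53 to 117 ± 4.93 CPM. Adcy8, an adenylate cyclase, was raised from 3.11 ± 0.902 to 7.62 ± 1.003 CPM, and the fusion protein Stx1a from 12.6 ± 0.905 to 16.5 ± 1.45 CPM. Of 43 exocytosis genes 8 were raised and 4 lowered, the latter 2 without control replicate 3, IL-1β replicate 2 or IL-1β replicate 3, 7 with DESeq2, 9 with a filter of 1 CPM and 12 with upper-quartile factors. The vesicle protein Syt11 was raised from 68.8 ± 2.49 to 108 ± 2.43 CPM, and Myrip, which links granules to the cytoskeleton, was lowered from 12.9 ± 1.53 to 8.59 ± 0.783 CPM. G6pc2, which opposes glucokinase, measured 1077 to 1139 CPM in the control libraries and 1034 to 1166 CPM with IL-1β and was not called (adjusted p = 0.654).

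Receptors for hormones and neurotransmitters were lowered in 7 and raised in 6 of 32 cases. The prolactin receptor Prlr, which drives beta cell growth in pregnancy, was lowered from 256 ± 33.2 to 147 ± 14.5 CPM, the VIP receptor Vipr1 from 78.4 ± 4.69 to 44.4 ± 3.58 CPM and the calcium sensor Casr from 127 ± 7.21 to 87.3 ± 6.56 CPM. The second VIP receptor, Vipr2, was raised from 5.82 ± 0.741 to 9.74 ± 0.523 CPM, the vasopressin receptor Avpr1b from 6.82 ± 0.843 to 13.8 ± 2.503 CPM and the melanocortin receptor Mc4r from 0.438 ± 0.144 to 1.21 ± 0.334 CPM. The 2 VIP receptors thus changed in opposite directions, and Vipr1 had more CPM than Vipr2 in both groups.

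Among 33 calcium and sodium channel genes 6 were raised and 1 was lowered, or 2 without IL-1β replicate 2. The T-type calcium channel Cacna1g measured 2.99, 2.08, 2.25 and 2.65 CPM in the control libraries and 29.7, 27.2, 28.2 and 42.7 CPM in the IL-1β libraries (log2 fold change 3.69 ± 0.19, adjusted p = 1.23e-09). Potassium channel genes gave 7 raised and 12 lowered of 67, or 10.4% and 17.9%, beside 11.2% and 6.59% of all genes. Raised potassium channel genes numbered 4 without control replicate 3, and lowered ones 7 with library size as the only scaling. The sodium-activated Kcnt2 had the largest rise of them, from 0.1004 ± 0.0799 to 0.9998 ± 0.329 CPM, and Kcnf1, a subunit that opens no channel alone, the largest fall, from 17.5 ± 4.53 to 3.95 ± 1.49 CPM (log2 fold change -2.16 ± 0.27). The calcium pumps of the endoplasmic reticulum changed in opposite directions: Atp2a3 (SERCA3) gained from 1468 ± 125 to 2167 ± 174 CPM, and Atp2a2 (SERCA2) lost from 1763 ± 91.1 to 1393 ± 130.2 CPM.

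Of the ER stress and protein folding genes 2 of 43 were raised and 10 lowered, with a median of -0.15. Lowered were the glutathione-degrading Chac1 from 93.7 ± 11.2 to 70.4 ± 2.39 CPM, the stress sensor Atf6 from 245 ± 5.696 to 205 ± 15.6 CPM and the co-chaperone Dnajb9 from 699 ± 18.8 to 578 ± 66.3 CPM (adjusted p = 0.0109 without IL-1β replicate 4). Atf4 and Ddit3 (CHOP), of the integrated stress response, were lowered 1.16-fold and 1.18-fold. These calls were each lost in 6 of the 8 fits that leave out 1 library, all but those without control replicate 1 or IL-1β replicate 2 (adjusted p up to 0.0593 and 0.0320). With library size as the only scaling they were lost too (adjusted p = 0.0591 and 0.0612), as they were with limma-voom or the 8 libraries alone. The chaperone Hspa5 (BiP) measured 2905 to 3361 CPM in the control libraries and 2544 to 3206 CPM with IL-1β and Xbp1 348 to 366 CPM in the control libraries and 306 to 346 CPM with IL-1β, and neither was called (adjusted p = 0.383 and 0.0469, the latter 0.00372 with upper-quartile factors). Edem1, which removes misfolded glycoproteins, was raised from 257 ± 4.51 to 314 ± 26.1 CPM. The number of lowered members was 3 without IL-1β replicate 4, 4 without IL-1β replicate 3, 5 with library size as the only scaling and 18 with upper-quartile factors.

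Replication genes were lower with IL-1β, with 16 of 45 S phase genes lowered and none raised (median -0.31). The licensing factors Cdc6 and Cdt1 were lowered from 4.87 ± 1.37 to 2.59 ± 0.7498 CPM and from 5.803 ± 0.853 to 3.66 ± 0.446 CPM. The helicase subunit Mcm2 was lowered from 28.5 ± 3.04 to 20.7 ± 1.23 CPM and Uhrf1, which copies DNA methylation, from 6.37 ± 1.58 to 3.77 ± 0.597 CPM. The count of lowered S phase genes was 7 without control replicate 3, without control replicate 4 or without IL-1β replicate 4, 8 without IL-1β replicate 1, 7 with library size alone and 8 with the 8 libraries alone. Mitotic genes had a lower median (-0.50) but few calls, 4 lowered and 1 raised of 44, and the control pools differed among themselves. Mki67, the proliferation marker, measured 24.1, 38.7, 59.2 and 54.9 CPM in the control libraries and 16.7, 26.6, 36.2 and 26.1 CPM in the IL-1β libraries (adjusted p = 0.121), which was not called. Top2a followed the same order of libraries (adjusted p = 0.119). Both were called only when the replicate number was added to the edgeR fit as a block (adjusted p = 7.61e-08 for Mki67 and 8.94e-05 for Top2a). With that block 26 mitotic genes were lowered, but no label says that a number marks a shared pool. Lowered mitotic genes numbered 13 without control replicate 1, 1 without control replicate 3, control replicate 4 or IL-1β replicate 1, and 2 without IL-1β replicate 4. They numbered 12 without the filter on low counts and 1 with library size alone or the 8 libraries alone. The raised member was the phosphatase Cdc25b, from 14.1 ± 1.63 to 22.8 ± 0.889 CPM. Of 18 genes of G1 cyclins, their kinases and kinase inhibitors 7 were lowered and 1 was raised. These are 38.9% and 5.56%, beside 6.59% and 11.2% of all genes. The log2 fold changes reached down to -1.72, and 1 lowered member, not reported here, fell at least 2-fold. The D-type cyclins and their kinase were among the lowered, with Ccnd1 from 171 ± 12.8 to 121 ± 12.4 CPM, Ccnd2 from 831 ± 71.2 to 614 ± 45.1 CPM and Cdk4 from 132 ± 4.21 to 109.9 ± 4.47 CPM, while Cdk6 was raised from 2.73 ± 0.493 to 5.09 ± 1.49 CPM. The inhibitor Cdkn1a (p21) measured 59.4 to 68.5 CPM in the control libraries and 58.8 to 72.8 CPM with IL-1β and was not called (adjusted p = 0.604).

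In core metabolism the share of genes called differed between the lists, beside 11.2% raised and 6.59% lowered over all genes. Of 77 oxidative phosphorylation subunits 5 were raised and 1 was lowered, of 7 mitochondrially encoded genes and of 80 ribosomal protein genes 0 and 1 were called, and of 43 glycolysis and citric acid cycle enzymes 8 were raised and 3 lowered. With library size as the only scaling, 20 oxidative phosphorylation subunits and 20 ribosomal protein genes were raised. Raised oxidative phosphorylation subunits numbered 2 without control replicate 3, control replicate 4 or IL-1β replicate 2. Raised ribosomal protein genes numbered 0 without those 3 libraries, 3 without IL-1β replicate 1 or 4 and 2 without IL-1β replicate 3. The phosphofructokinase Pfkp was raised from 29.2 ± 2.19 to 59.4 ± 5.37 CPM and malic enzyme Me1 from 25.98 ± 1.48 to 42.7 ± 2.58 CPM. Of 36 sterol and fatty acid synthesis genes 4 were lowered (8 with upper-quartile factors or without the filter) and 1 was raised. Insig1, a sensor that holds back sterol synthesis, went from 138 ± 7.12 to 91.02 ± 6.49 CPM and the desaturase Scd2 from 192 ± 14.03 to 132 ± 14.8 CPM. Of 24 fatty acid oxidation and ketone body genes 10 were raised and 4 lowered, or 41.7% and 16.7%. The lowered ones numbered 2 without control replicate 4 or with library size alone. The long-chain dehydrogenase Acadl was raised from 38.1 ± 1.42 to 54.01 ± 3.67 CPM, and Hadh, a short-chain dehydrogenase that also restrains insulin secretion, was lowered from 374 ± 9.53 to 291 ± 13.6 CPM. Of 30 iron, copper and zinc handling genes 10 were raised and 6 lowered, or 33.3% and 20%, the latter 3 genes without control replicate 4. Besides Lcn2, Steap4 and Cp, the iron importer Slc11a2 was raised 1.62-fold, the exporter Slc40a1 1.64-fold and transferrin (Trf) 4.04-fold, while the ferritin light chain Ftl1 was lowered 1.25-fold.

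Among epithelial genes, of 36 claudins, keratins and mucins tested 13 were raised and none was lowered. The mucin Muc13 went from 0.348 ± 0.0932 to 3.76 ± 1.01 CPM, Muc1 from 0.901 ± 0.0679 to 3.43 ± 0.345 CPM and the tight junction gene Cldn1 from 0.913 ± 0.478 to 3.099 ± 1.13 CPM. Of 52 collagens and laminins 5 were raised and 4 lowered, or 9.62% and 7.69%, near the 11.2% and 6.59% of all genes. Raised members numbered 3 without control replicate 1, control replicate 2, IL-1β replicate 3 or IL-1β replicate 4, and lowered members 2 without control replicate 4 or IL-1β replicate 2, with library size alone, limma-voom or the 8 libraries alone. The laminin chain Lamb3 of epithelial basement membranes measured 0.327, 0.292, 0.478 and 0.342 CPM in the control libraries and 11.01, 17.6, 16.9 and 18.1 CPM in the IL-1β libraries. Another chain, Lama1, went from 1.33 ± 0.186 to 10.7 ± 1.87 CPM. Among matrix proteases and inhibitors, 8 of 34 were raised and 1 was lowered (0 without IL-1β replicate 3, and 2 without control replicate 1 or IL-1β replicate 4). The membrane protease Mmp14 went from 1.85 ± 0.437 to 5.93 ± 0.827 CPM and the inhibitor Timp1 from 0.406 ± 0.188 to 1.22 ± 0.293 CPM. The plasminogen activators Plau and Plat and the receptor Plaur were raised 2.45-fold, 2.24-fold and 2.53-fold. Spp1, osteopontin, which is a duct marker and is also made by macrophages, measured 8.12, 11.8, 14.4 and 13.2 CPM in the control libraries and 96.4, 160.1, 169 and 207 CPM in the IL-1β libraries (log2 fold change 3.74 ± 0.38, adjusted p = 7.44e-06). Of 10 duct markers 4 were raised, or 40%, with a summed level of 610 to 665 CPM in the control libraries and 845 to 981 CPM with IL-1β. That sum includes Spp1, and the median log2 fold change of the duct markers was 0.22, so the sum does not describe the list. Of the 10 tested fibroblast, stellate and pericyte markers Pdgfrb and Acta2 were lowered, from 1.32 ± 0.386 to 0.422 ± 0.227 CPM and from 0.826 ± 0.0894 to 0.249 ± 0.174 CPM. Acta2 had an adjusted p of up to 0.0179 without control replicate 3 or 4 or IL-1β replicate 1 or 2. Of 10 endothelial markers 2 were raised, with Pecam1 from 2.08 ± 0.3401 to 3.92 ± 0.435 CPM, and 1 without control replicate 2 or IL-1β replicate 4. Of 8 acinar markers Cpb1 was raised from 0.268 ± 0.0543 to 1.13 ± 0.649 CPM and Ctrb1 from 0.589 ± 0.439 to 5.66 ± 2.67 CPM, and 1 was lowered (2 without control replicate 4). Ctrb1 was above the threshold in 7 of the 8 fits that leave out 1 library, all but that without IL-1β replicate 1 (adjusted p up to 0.0274).

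Of 26 immediate early genes 6 were raised and 1 lowered (0 without control replicate 2, 3 or 4 or IL-1β replicate 1, 3 or 4), with Junb from 19.9 ± 1.88 to 56.3 ± 5.12 CPM and the NF-κB target Ier3 from 3.81 ± 0.2898 to 10.2 ± 2.23 CPM. Of 20 clock genes 4 were raised and 4 lowered (2 without control replicate 4 or IL-1β replicate 4 or with library size alone, and 7 with upper-quartile factors), with the repressor Bhlhe40 raised from 10.1 ± 1.501 to 24.3 ± 2.49 CPM and Npas2, a partner of BMAL1, from 4.34 ± 0.186 to 10.02 ± 0.738 CPM.

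The 12 largest falls, chosen by the same rule as the rises, were in genes with control means of 2.41 to 128 CPM, of which 4 are not annotated as protein coding. After 4931431B13Rik, from 2.41 ± 0.322 to 0.205 ± 0.107 CPM (log2 fold change -3.50 ± 0.29), came the antisense gene Gm44850, from 15.3 ± 3.25 to 2.32 ± 0.899 CPM. The uroplakin Upk3a measured 14.3, 16.7, 21.9 and 21.3 CPM in the control libraries and 2.69, 3.85, 4.51 and 2.85 CPM in the IL-1β libraries. Cox6a2, the cytochrome oxidase subunit of muscle, measured 17.3, 24.1, 27.2 and 26.3 CPM in the control libraries and 4.08, 5.26, 5.23 and 4.15 CPM in the IL-1β libraries. In all of these the control and IL-1β libraries were apart. Others of the 12 largest falls were the antisense gene 4933432K03Rik, Gm47824 and the neurokinin receptor Tacr3 (log2 fold change -1.72 ± 0.41, a call lost without control replicate 1 or 2 or IL-1β replicate 2, 3 or 4, adjusted p up to 0.0264, and with the 8 libraries alone). The synaptic pentraxin Nptx2 (log2 fold change -1.49 ± 0.30, adjusted p = 0.037 when only the 8 control and IL-1β libraries were fitted) belonged to them too, as did the calcium-binding Necab2 (log2 fold change -1.42 ± 0.22) and the matrix protein Egflam (log2 fold change -1.40 ± 0.11), besides Kcnf1 and Trpm5. Larger in CPM were the losses of the G protein subunit Gng12, from 1586 ± 52.6 to 1049.6 ± 122 CPM. The hormone carrier Ttr was lowered from 1129 ± 117 to 683 ± 79.3 CPM, and the protease Pappa2, which frees insulin-like growth factors from their binding proteins, from 667 ± 80.4 to 283 ± 25.01 CPM. Of 840 lincRNA genes tested 44 were lowered and 15 raised, or 7.02% in either direction, beside 17.8% of all genes tested. Of 14744 protein-coding genes 1101 were lowered and 2015 raised.

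Several falls and rises were neighbours in the genome. On chromosome 7, 5 adjacent tested genes were lowered in a run at chr7:128154376-128238031, the integrin Itgad (from 1.32 ± 0.0991 to 0.174 ± 0.108 CPM), 4931431B13Rik, Cox6a2, Gm44850 and 9130023H24Rik (log2 fold change -0.37 ± 0.06), which includes 3 of the 4 largest falls named above. Itgad itself (log2 fold change -2.89 ± 0.34) was below the average level that the rule for those asks for. On chromosome 9 a run of 4 held Gm34654, Gm47818, Gm19572 and Gm47824, with log2 fold changes from -1.81 to -1.21. In all, 14 runs of at least 3 adjacent tested genes were lowered and 61 raised. How many runs genes in random order would give was not computed, so no clustering is read from these counts. The strand setting of the counts is not stated, so overlapping and antisense neighbours may share reads. The longest raised runs were 10 genes around the Gbp cluster at chr5:104935057-105832436, 8 protocadherins from Pcdhb15 to Pcdhb22 on chromosome 18 with log2 fold changes of 0.42 to 1.16 (Pcdhb22 from 9.58 ± 0.674 to 17.8 ± 1.67 CPM). Next were 7 genes of the Serpina3 cluster at chr12:104189517-104414329 and 7 genes at chr19:11047612-11604849 with the Ms4a family, whose members are largely leukocyte genes. The protocadherin genes are similar in sequence, and part of their counts may be shared.

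The lists described here held 39.1% of the genes raised at least 4-fold and 14 of the 100 genes lowered at least 2-fold, against 7.41% of all genes tested. As the lists were chosen with earlier results of these data known, nothing is read from this difference. The smallest p of all genes belonged to a raised gene outside the lists, Ptprg, a receptor tyrosine phosphatase that is named after its values were seen. It measured 11.3, 9.05, 10.5 and 10.7 CPM in the control libraries and 116, 107, 107 and 109.6 CPM in the IL-1β libraries (log2 fold change 3.41 ± 0.07, adjusted p = 2.04e-23).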

How the data were processed

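Gene counts were the values used: per the labels and the study's methods, the authors sequenced single-end libraries (RNeasy Micro RNA, NEBNext Ultra II) on an Illumina HiSeq instrument, aligned reads to mouse GRCm38 (mm10) and counted reads per gene, and the submitters' processing notes name bcl2fastq 2.19.1, FastQC 0.11.7, MultiQC 1.7, STAR 2.5.3a and DESeq2. The strand setting of the counts and the annotation release are not given in the sources used here. The labels name the strain C57BL/6JRj and the methods C57BL/6NRj.

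From the deposited counts, edgeR 4.0.16 in R 4.3.3 was run on all 16 libraries: filterByExpr over the 4 conditions, TMM scaling, and a robust quasi-likelihood test of IL-1β against control with condition as the only term. Adjusted p-values are Benjamini-Hochberg values over the 18587 genes tested, called under 0.01, and SEs were derived from the fold change and the F statistic. CPM were computed from counts and TMM-scaled library sizes. Where every control library was at 0, the fold is a lower bound against 3 counts per library; with a few control counts, ratios of summed counts carry exact binomial intervals (95%). On counts simulated for this comparison over 17823 genes, 72.8% of 195 changed genes were called, with 1 false call among 143. Of the 130 changed at least 2-fold, 83.1% were called. The smallest change simulated was 1.5-fold, and no effect of the replicate was simulated. In the data 1026 raised and 923 lowered genes were changed by less than 1.5-fold, so the simulation does not cover them. Replicate pools differed by more than sampling noise (chi-square per gene 1.72 to 13.5), so none was a repeated deposit.

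The comparison, the gene lists and the cell type markers were chosen with earlier results of these data known, so lists are described by counts and medians and not tested. Genes named are the 12 largest rises and 12 largest falls in fold change, and the 10 largest gains and 10 largest losses in CPM, among called genes whose groups did not overlap and whose average was at least 1 on the log2 CPM scale, and members of the lists, some of which are not reported here. Gene positions come from the GRCm38 annotation, and promoters and their coordinates from RefSeq (GRCm38.p6). Alternatives were other scalings (RLE, upper quartile, library size alone), DESeq2 1.42.0, limma-voom (limma 3.58.1), other filters, only the 8 libraries compared, a replicate block, an adjusted p under 0.05 and leaving out each library. Promoters were searched with Python 3.11.15.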

Additional observations from a re-analysis of the deposited data

Results flagged for a closer look

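In each group of 4 libraries, the highest or lowest value of every gene named was compared with the others by Dixon's criterion, which chance passes in about 1 of 20 groups. It was passed in 34 of 538 groups, most often by control replicate 4 (10 genes), control replicate 1 (7 genes) and IL-1β replicate 1 (6 genes).

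Control replicate 4 was the highest of the control libraries for Ceacam10 at 1.156 CPM (next 0.7166), C4b at 0.3424 CPM, Irf8 at 2.697 CPM and Plau at 1.413 CPM. It was the lowest for Cebpd at 2.568 CPM and for the adenylate cyclase gene Adcy8 at 1.755 CPM (next 3.535). In Serpina3f, Ccl20 and Saa2, at 0.0428 CPM each, and in Il1f6, at 0.08561 CPM, it was the only control library with any count, which is a matter of 1 or 2 reads. Control replicate 1 was the highest for the NF-κB genes Nfkb2 at 12.65 CPM and Tnfaip3 at 6.253 CPM, for Ehf at 13.63 CPM, Gsdmd at 7.933 CPM, Mc4r at 0.6533 CPM and Ccnd1 at 189.8 CPM, and the lowest for Prdx4 at 16.43 CPM. Control replicate 2 was the lowest for Itgb8 at 16.8 CPM. Reg3b had counts in control replicate 3 alone of the control libraries, at 0.1433 CPM.

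Among the IL-1β libraries, replicate 1 was the highest for Nfkb2 at 86.29 CPM (next 66.8) and Ehf at 53.46 CPM, which control replicate 1 also led in its group, and for Atp2a2 at 1586 CPM and Isl1 at 206.6 CPM. It was the lowest for Lamb3 at 11.01 CPM and for Reg3b at 0.0517 CPM. Replicate 2 was the highest for Trf at 3.262 CPM. Replicate 3 was the lowest for Steap4 at 383.4 CPM and the highest for Cxcl1 at 27.57 CPM and Slc2a2 at 363.2 CPM. Replicate 4 was the highest for Icam1 at 24 CPM, Ncf4 at 2.165 CPM and Cacna1g at 42.73 CPM (next 29.68), and the lowest for Il13ra1 at 41.1 CPM and G6pc2 at 1034 CPM. None of these values made the control and IL-1β libraries of a called gene overlap.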

How the results depend on the processing

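Of the 269 genes named, 251 were called, and 235 of these kept their call and direction under each of the 18 alternatives that gave a value, while 16 lost it in at least 1. Calls lost on leaving out a library or using other scalings stand beside the values of these genes. Besides, Atf4 and Hrk were lost with RLE factors (adjusted p = 0.0101 and 0.0104), Hrk with a filter of 1 CPM, limma-voom or the 8 libraries alone (adjusted p = 0.0102, 0.0156 and 0.0389), and C1qa, Ctrb1 and Tacr3 without a filter on low counts (adjusted p = 0.0219, 0.0157 and 0.0176). Of the 18 genes named as not called, 7 were called in at least 1 alternative: Il1r1, Rela, Reg3b, Saa2 and Xbp1, as given beside their values, Reg3b also with library size alone and without a filter (adjusted p = 0.0097 and 3.07e-07), and Mki67 and Top2a with the replicate block only (adjusted p = 7.61e-08 and 8.94e-05). The raised genes and those raised at least 2-fold moved by less than 1.5 times in every alternative, and smaller downward changes moved more. Lowered genes numbered 708 with library size alone, 1951 with a replicate block and 2128 at an adjusted p under 0.05, where those lowered at least 2-fold numbered 167. Lowered members over all lists numbered 207 with the block and 194 at 0.05. Lowered runs numbered 29 with upper-quartile factors, 7 with library size alone, 42 with the block and 42 at 0.05, and raised runs 111 with library size alone, 102 with the block and 121 at 0.05. The cause of these differences was not tested. Chga, which was not called, changed sign, at -0.0107 with upper-quartile factors and from -0.0113 to 0.0740 on leaving out each library.

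When single libraries were left out, there were 2758 to 3263 called genes, 1819 to 2086 raised, 896 to 1177 lowered, 689 to 806 changed at least 2-fold (602 to 711 up, 85 to 111 down), 331 to 367 raised and 93 to 130 lowered list members, 43 to 68 raised runs, 6 to 15 lowered runs, and the NF-κB letters in 8.23 to 9.39% of promoters of genes raised at least 2-fold. Lowered runs fell to 7 without control replicate 3, 8 without control replicate 4, 8 without IL-1β replicate 3 and 6 without IL-1β replicate 4.

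The labels number the replicates of each group 1 to 4, without saying that a number marks a shared pool. The sample numbers in the column headers run replicate by replicate, through the 4 conditions within each. Deviations of same-numbered control and IL-1β libraries correlated at 0.0658 to 0.397, over 0.1 in 3 of the 4 pairs. Of the 4 IL-1β libraries, 3 correlated best with their own number. Over all conditions the 24 same-numbered pairs correlated at 0.0535 to 0.397, and pairs of different numbers at -0.293 to 0.170. The paper describes 4 independent experiments, but neither it nor the labels tie a number to a shared pool. The main fit therefore held no block, and results with a block are given here. With the replicate block, 4537 genes were called, among them 3310 of the 3311 called without it in the same direction. Lowered mitotic genes numbered 26 with the block, lowered ER stress genes 17, lowered sterol and fatty acid synthesis genes 12 and lowered exocytosis genes 10, and raised oxidative phosphorylation subunits 13, ribosomal protein genes 10 and constitutive proteasome subunits 5. Il1r1 and Reg3b were called with it too (adjusted p = 0.00341 and 2.94e-06).

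Depth limits the genes at or near the floor of 3 counts per library, for which only bounds or a few counts stand behind a fold.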

Other observations

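Genes outside the gene lists also changed clearly, and the 5 given here were chosen after their values were seen. Csf1, the growth factor of macrophages, measured 10.8, 9.84, 8.74 and 9.97 CPM in the control libraries and 35.5, 35.6, 40.8 and 41.3 CPM in the IL-1β libraries (log2 fold change 1.96 ± 0.08), the 4 IL-1β libraries lying above the 4 control libraries. Tlr2, a receptor for bacterial lipoproteins, went from 27.7 ± 1.08 to 75.8 ± 3.59 CPM, and the signalling kinase Lyn, best known from blood cells, from 4.72 ± 0.213 to 33.05 ± 1.88 CPM. Itgb8, an integrin subunit that activates TGF-β, went from 18.4 ± 1.11 to 84.8 ± 6.83 CPM, and Odc1, the first enzyme of polyamine synthesis, from 78.7 ± 3.56 to 285 ± 23.97 CPM. By type of gene, 21.1% of 14744 protein-coding genes tested were called, 7.02% of 840 lincRNA genes, 5.12% of 723 antisense genes and 2.45% of 449 processed pseudogenes.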
